A study of Mus musculus with 8 samples.

Results

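C3, the central protein of the complement system, was measured as RNA in mouse intestinal epithelial cells (IECs) together with Cfb, Cfd, Cfi, Cd55, Cd46 and Cd59a. These 7 genes were taken by name from the 40178 genes listed in the deposited tables. The ileum table lists 7 of the 7 among its 38649 genes. The colon table lists 6 of the 7 among 28349, without Cfd, and holds no gene that is at 0 in all its libraries. RNAseq was available for IECs detached from the colonic and ileal wall with EDTA. They came from 2 WT mice, Ddx5(+/+) with Vil1Cre(+), and from 2 DDX5ΔIEC mice, Ddx5(fl/fl) with Vil1Cre(+). All mice thus carried the Cre transgene, whose Villin1 promoter acts in the gut epithelium, so cells of other lineages in a preparation keep Ddx5. The labels give an age of 8 weeks, no treatment and 2 replicates in each of the 4 groups, but do not tie a colon and an ileum library to the same mouse. The question put to these genes was whether their RNA depends on Ddx5, which encodes an RNA-binding DEAD-box helicase, and whether it differs between the 2 gut segments. C3 was singled out by the study partly from these same colon libraries, so its values here are not independent evidence of its direction.

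Complement is a chain of proteases in blood and tissue fluid that marks cells for attack. In the alternative pathway, a cleaved form of C3 binds factor B (Cfb), factor D (Cfd) cuts the bound factor B, and the resulting enzyme cleaves more C3, so that the reaction amplifies itself. Host cells hold it back with CD55, which takes the C3-cleaving enzymes apart, with CD46, a cofactor by which factor I (Cfi) inactivates deposited C3, and with CD59a, which blocks the membrane attack complex. The liver makes most of the circulating factors, while epithelial cells can make some of their own and carry the membrane regulators on their surface.

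C3 lies on chromosome 17 of GRCm38 (mm10), minus strand, at chr17:57203970-57228136, with 5143 bases of exon and no exon shared with another annotated gene. Its promoter is shown because C3 had the largest fold change and the smallest p of the members tested between the genotypes in the colon, and because the factors known to act on it are followed further on. The sequence, from RefSeq on GRCm38.p6, covers chr17:57228117-57228386 on the minus strand, 250 bases before and 20 after the annotated start. Capitals mark the C/EBP motif TTGCGNAA, which begins 45 bases before the start, and the TATA box motif TATAAA, which begins 15 bases after the annotated start and ends the stretch shown. The 2 matches do not overlap.
C3 promoter: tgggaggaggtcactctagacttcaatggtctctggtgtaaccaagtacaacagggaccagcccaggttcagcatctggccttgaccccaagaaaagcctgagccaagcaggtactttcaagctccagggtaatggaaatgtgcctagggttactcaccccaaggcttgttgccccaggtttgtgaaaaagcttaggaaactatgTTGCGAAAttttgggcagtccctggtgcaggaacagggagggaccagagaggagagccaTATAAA

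Both strands of 32851 promoter windows of 300 bases were searched for 3 motifs. TTGCGNAA was found in 0.798% of them and TATAAA in 13.6%. The STAT motif TTCNNNGAA, found in 8.30%, had no match in the C3 window. None of these 3 motifs had a match in the windows of Cfd, Cd55, Cd46 and Cd59a, the other members with a promoter in the RefSeq table. A match is a description of letters and not a measured site.

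The primers below are those the study used to measure mouse C3 RNA by PCR, and they are shown because they place that assay on the gene whose reads are counted here. In the full-length C3 transcript, of 5136 bases and 41 exons, the product runs from base 2729 in exon 21 to base 3113 in exon 24, 385 bases in all, at chr17:57215871-57218627. The same product lies in another annotated C3 transcript, of 662 bases and 6 exons.
C3 forward primer: caccgccaagaatcgctac
C3 reverse primer: gatcaggtgtttcagccgc

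Between 11571061 and 22984283 reads were counted on genes per library. Ddx5 was at 771 and 706 CPM (reads scaled to a common library size, with TMM factors) in WT colon and at 367 and 355 in DDX5ΔIEC colon. In the ileum it was at 700.5 and 700.3 CPM in WT and at 340 and 326 in DDX5ΔIEC, so each library fits its genotype label. Ddx5 RNA was still counted in DDX5ΔIEC, at a 2.06-fold lower level than WT in the colon and a 2.10-fold lower level in the ileum. Each of 10 epithelial markers was detected in every library, with a summed level of 11400 to 12774 CPM in the colon and 14545 to 18647 CPM in the ileum. Each of 6 leukocyte markers was detected as well, and their sum was lower in DDX5ΔIEC colon, with values given beside C3. In DDX5ΔIEC ileum replicate 2, 19.5% of reads fell on 3 repeat-like genes (Gm10800, Gm10801, Gm21738), against at most 4.05% in any other library.

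In WT colon the membrane regulator Cd55 had the highest level of the 7 genes per length, and C3 and Cfb came next at nearly the same level. Cd55 was at 12.1 ± 0.744 CPM per kb of exon (SD, n = 2). C3 was at 2.54 ± 0.0789 and Cfb at 2.47 ± 0.212 CPM per kb, values that do not differ beyond their spread. Cd46 at 0.490 ± 0.117 and Cd59a at 0.381 ± 0.0461 CPM per kb were lower and also within each other's spread. Cfi, at 0.0614 ± 0.0534 CPM per kb, rested on 1 and 5 reads. In a list of 55 complement genes that takes in membrane regulators and receptors, C3 came behind 3 others per length in WT colon, C1qbp at 13.3 ± 0.521, Cd55, and Cr1l at 7.46 ± 0.0525 CPM per kb. C1qbp encodes a mitochondrial and cell-surface protein that binds C1q, and Cr1l the rodent membrane regulator Crry. Fcna, a lectin pathway recognition protein, was at 2.13 ± 0.203 CPM per kb.

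In WT ileum the order was different. Cd55 led all 55 genes at 114 ± 25.9 CPM per kb, above C1qbp at 17.4 ± 1.28 and Cr1l at 6.73 ± 0.0312. Cfb followed at 4.43 ± 0.0244 and Cfi at 2.07 ± 0.313 CPM per kb, with C4bp, the soluble C4b-binding regulator, between them at 2.69 ± 1.12. C2 at 2.30 ± 0.874 and Mbl2 at 2.28 ± 1.32, described further on, lay between C4bp and Cfi, within the spread of both. C3 was at 0.471 ± 0.247 CPM per kb, and its 2 libraries lay on either side of Cd46 at 0.371 ± 0.0338. Cd59a was at 0.0638 ± 0.0181 CPM per kb, with 2 reads in each library. The plot of complement genes per length in WT shows both segments side by side.

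**Figure D1:**
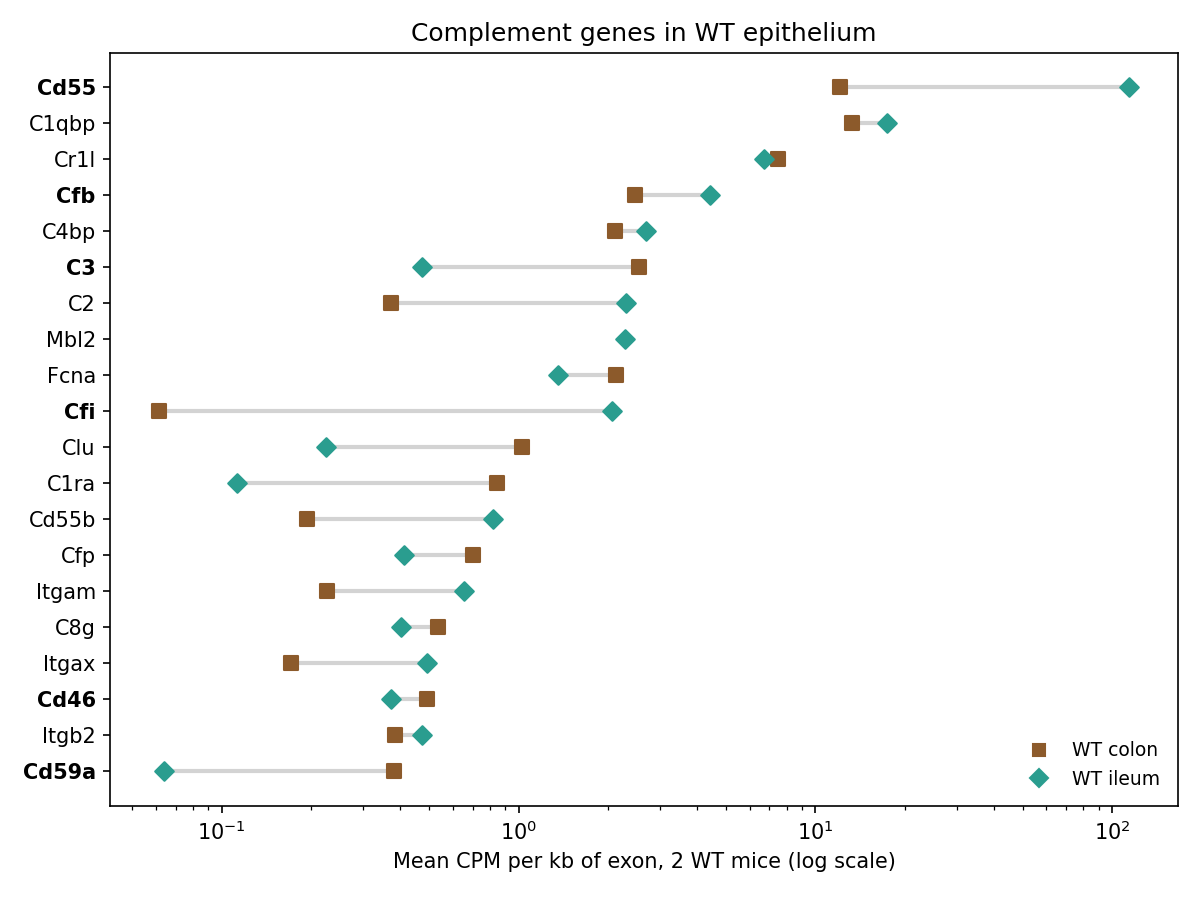
Mean CPM per kb of exon (log scale) of the 20 complement genes at 0.35 CPM per kb or more in WT colon (squares) or WT ileum (diamonds), 2 mice each, with the members in bold. Cd55, at 12.1 in WT colon but 114 in WT ileum, and Cfi lie far to the right in the ileum, while C3 lies to the left there; Mbl2 is at 0 in WT colon and has no square.

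Not every member could be measured equally well. Cfd, the protease that starts the amplification, was at 2 reads in WT ileum replicate 1 and at 0 in the other 7 libraries, where 0 reads allow up to 0.132 to 0.321 CPM (3 reads, counting error only). Cfb (chr17:34856374-34862518, minus strand) shares 79.5% of its 2825 exon bases with the read-through gene Gm20547 on the same strand, and 73.0% of its 50-base words occur in transcripts of that gene. Reads there can be left unassigned, so the level of Cfb relative to other genes is uncertain, and Gm20547 itself is listed in neither table. Gm20547 runs on to chr17:34882042, past the end of Cfb. Its overlap with C2, the neighbour of Cfb, was not measured, so the level of C2 may be uncertain in the same way. Cd46 (chr1:195036826-195092249, minus strand) shares 14.2% of its exon bases with the antisense transcript A330023F24Rik. The kit marks strand, but whether counting used it is not stated. Cd55 (chr1:130439027-130462744, minus strand) shares 8.00% of its 50-base words with its paralog Cd55b, and Cd59a (chr2:104095801-104115354, plus strand) 3.87% with Cd59b. C3, Cfi (chr3:129835884-129875332, plus strand) and Cfd (chr10:79890853-79892655, plus strand) share no such word with another gene.

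C3 RNA was lower in the ileum than in the colon of WT mice, and Cd55, Cfi and Cfb were higher. C3 was at 12.8 and 13.3 CPM in WT colon and at 3.32 and 1.53 CPM in WT ileum. The ranges were far apart, with a 5.20-fold lower level in the ileum (log2 fold change -2.38, SE 0.314, edgeR adjusted p = 0.000665). Without WT ileum replicate 1 the log2 fold change was -3.10 (adjusted p = 0.000751). Cd55 was at 61.1 and 56.0 CPM in the colon and at 464 and 642 CPM in the ileum. Its level was 9.44-fold higher in the ileum, the highest CPM of any member in any group (log2 fold change 3.24, SE 0.262, adjusted p = 5.05e-05). Cfb was at 7.41 and 6.56 CPM in the colon and at 12.5 and 12.6 CPM in the ileum. This 1.79-fold higher level (log2 fold change 0.84, SE 0.162, adjusted p = 0.00453) missed the threshold without WT colon replicate 2, at an adjusted p of 0.0519.

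Cfi, the protease that inactivates C3 fragments, had few reads in WT colon, 1 and 5, against 110 and 59 in WT ileum. The ratio of its summed reads, each group scaled by its library sizes, was 32.6 (95% counting interval 14.7 to 90.0). Cfi passed the count filter only through its ileum libraries, so the ratio is given as a description. The fitted log2 fold change of 4.94 went to 4.33 without WT colon replicate 1 and to 6.26 without WT colon replicate 2. Cd59a went the other way, with 12 and 17 reads in the colon against 2 and 2 in the ileum. The ratio of colon to ileum was 6.27 (2.20 to 24.5). Cd59a missed the threshold without WT colon replicate 2 and without either WT ileum library. Cd46 was at 3.10 and 4.36 CPM in the colon and at 3.00 and 2.64 CPM in the ileum, which do not overlap but differ by less than the test could call (log2 fold change -0.40, 95% interval -1.05 to 0.24, adjusted p = 0.314). Thus 3 of the 6 members tested were higher and 2 lower in WT ileum at an adjusted p under 0.05, where 17.4% of 16178 genes were higher and 16.8% lower. Among those called, Cfi entered the test only through the ileum and Cd59a only through the colon. Their calls are therefore not separate support for a difference.

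The same contrast in DDX5ΔIEC mice gave similar values for Cd55, Cfb and Cd59a, a larger one for Cfi and a smaller one for C3. Cd55 rose from 47.3 and 28.9 CPM in the colon to 336 and 411 in the ileum (log2 fold change 3.29, SE 0.264, adjusted p = 4.82e-05). Cfb rose from 5.79 and 6.93 to 11.4 and 10.3 CPM (log2 fold change 0.77, SE 0.169, adjusted p = 0.00855). For Cfi, 1 read in DDX5ΔIEC colon against 135 in the ileum gave a ratio of 270.1 with a counting interval of 47.7 to 10745. The fitted log2 fold change of 7.70 went to 9.84 without DDX5ΔIEC colon replicate 1, which holds the 1 read, and to 6.74 without DDX5ΔIEC colon replicate 2. Cd59a fell from 31 and 22 reads to 2 and 2, a ratio of 6.62 (2.44 to 25.2). C3 was at 4.14 and 3.60 CPM in the colon against 3.19 and 2.25 in the ileum, a difference that was not called (log2 fold change -0.50, 95% interval -1.30 to 0.30, adjusted p = 0.306). Cd46 was at 2.92 and 4.15 CPM in the colon and at 1.59 and 2.03 in the ileum, a fall of 0.97 on the log2 scale (SE 0.321, adjusted p = 0.0451). The call on Cd46 was lost without DDX5ΔIEC colon replicate 2 (adjusted p = 0.189) and without DDX5ΔIEC ileum replicate 1 (0.183) or 2 (0.0809). In all, 3 of the 6 members tested were called higher and 2 lower in DDX5ΔIEC ileum, where 18% of all genes were higher and 17.3% lower. Cfi and Cd59a again entered the test only through the segment where they were higher. By mean CPM, C3 was highest in WT colon, then in DDX5ΔIEC colon, DDX5ΔIEC ileum and WT ileum. The 2 ileum groups overlap, and the DDX5ΔIEC colon libraries lie just above both of them.

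**Figure D2:**
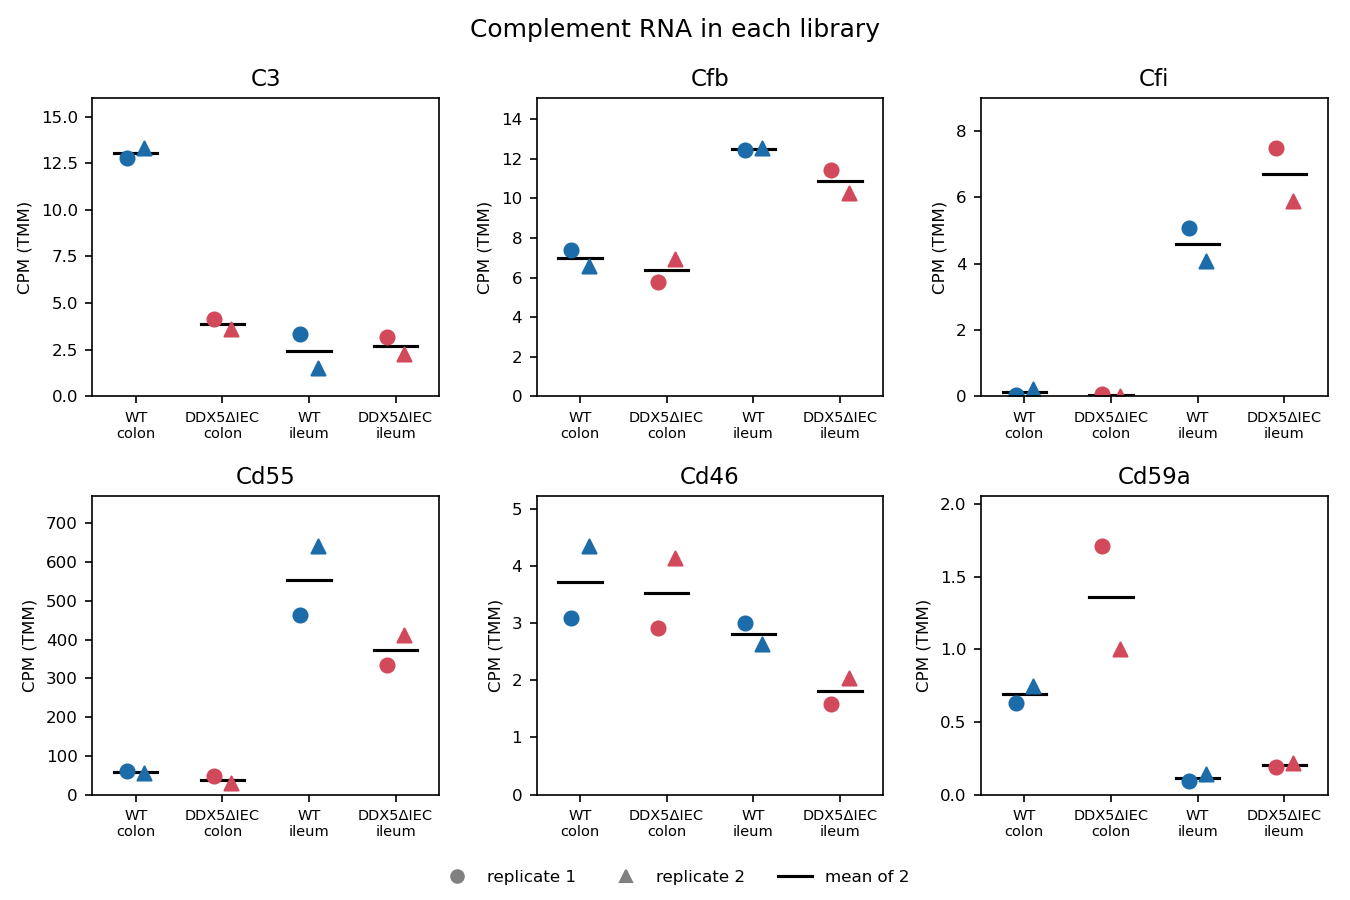
CPM (TMM, from 0) of 6 members in each of the 8 libraries; circles are replicate 1, triangles replicate 2, blue WT, red DDX5ΔIEC, and bars the mean of 2. C3 stands at 12.8 and 13.3 in WT colon and at 4.14 or less in the other 6 libraries; Cd55 and Cfi are high in the ileum and Cd59a in the colon.

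In the colon, C3 and Cd55 were lower in DDX5ΔIEC, and the other members tested did not pass the criterion. The criterion of the study was used, a log2 fold change of at least 0.5 with an unadjusted p under 0.05. It was met downwards by 3.67% and upwards by 3.04% of 15362 genes, and here by 2 of 5 members downwards and by 0 upwards. C3 had 243 and 303 reads in WT and 75 and 79 in DDX5ΔIEC, which is 13.0 ± 0.406 against 3.87 ± 0.381 CPM (SD, n = 2). Both DDX5ΔIEC libraries were far below both WT libraries. The level was 3.40-fold lower (log2 fold change -1.77, SE 0.186, 95% interval -2.25 to -1.29, edgeR unadjusted p = 0.000241), which places it at rank 26 among all genes by p. After adjustment over all genes it was 0.143. By edgeR 0 genes in the colon reached an adjusted p under 0.05, against 1836 at an unadjusted p under 0.05, whereas DESeq2 with the replicate block gave C3 an adjusted p of 0.000811. Without any one colon library the C3 fold change was between -1.86 and -1.66 on the log2 scale, at unadjusted p-values of 0.00112 to 0.00246.

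Cd55 had 1164 and 1273 reads in WT colon and 857 and 635 in DDX5ΔIEC colon, or 58.6 ± 3.61 against 38.1 ± 13.0 CPM. The groups do not overlap, and the 2 DDX5ΔIEC libraries lie further apart than the WT libraries. The level fell by 0.67 on the log2 scale (SE 0.165, unadjusted p = 0.0100, adjusted p = 0.307). The call ended without WT colon replicate 1 (unadjusted p = 0.115), without WT colon replicate 2 (unadjusted p = 0.0622) and without DDX5ΔIEC colon replicate 2, when the log2 fold change was -0.31 (unadjusted p = 0.203).

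The remaining members in the colon were not called. Cfb had 141 and 149 reads in WT and 105 and 152 in DDX5ΔIEC, with overlapping CPM (log2 fold change -0.14, 95% interval -0.68 to 0.39, adjusted p = 0.810). The interval excludes a fall of the size seen for C3. Cd46 also overlapped, at a log2 fold change of -0.09 with an interval of -0.65 to 0.48. Cd59a was at 0.630 and 0.748 CPM in WT and at 1.71 and 1.00 in DDX5ΔIEC. Its groups do not overlap, with the DDX5ΔIEC libraries on top (log2 fold change 0.91, interval -0.16 to 1.98, adjusted p = 0.468). With all 8 libraries in one fit, Cd59a met the criterion (log2 fold change 0.95, unadjusted p = 0.0406). With single colon libraries left out its log2 fold change was 0.529 to 1.295. Cfi, at 1 and 5 against 1 and 0 reads, was not testable.

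**Figure D3:**
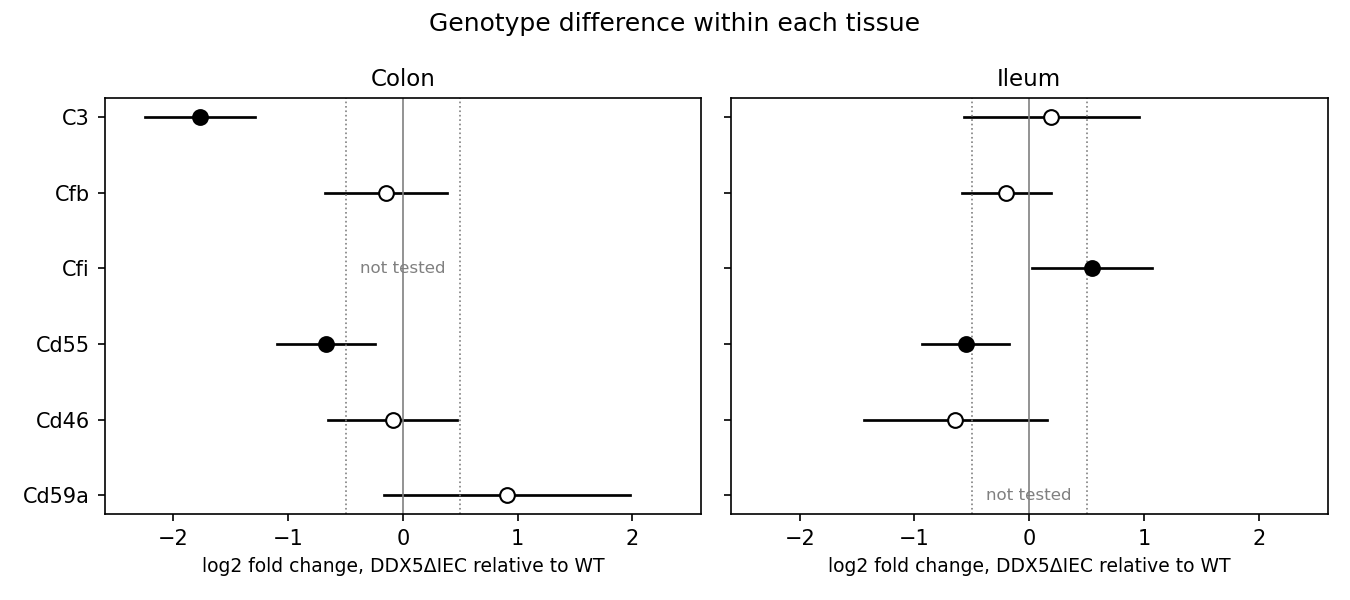
Log2 fold change of DDX5ΔIEC relative to WT in the colon (left) and the ileum (right) with 95% intervals from edgeR; filled points met the criterion (dotted lines at 0.5 in either direction). C3 lies at -1.77 on the left but at 0.19 on the right, and Cd55 below 0 in both.

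Leukocyte markers moved with genotype in the colon in the same direction as C3. The 6 leukocyte markers summed to 37.9 and 30.2 CPM in WT colon and to 8.33 and 17.5 CPM in DDX5ΔIEC colon, and 3 of the 6 (Ptprc, Cd53 and Rac2) met the criterion downwards, as 3.67% of all genes did. Among 7 T cell markers the sums were 13.7 and 8.36 against 1.82 and 6.43 CPM. Cd74, the MHC class II invariant chain, fell from 1494 and 1926 reads to 122 and 323. It was 1 of 2 B and plasma cell markers tested, and the other, Jchain, was at 8 and 3 against 10 and 24 reads. Of 2 endothelial markers tested, Vwf met the criterion downwards (log2 fold change -0.98) and Pecam1 upwards (0.88). The macrophage and dendritic cell markers summed to 34.8 and 32.0 against 22.7 and 31.4 CPM, lower in DDX5ΔIEC without overlap. Most of that sum was Cd14, at 30.3 and 28.6 against 19.3 and 28.0 CPM, with Fcgr1 and Xcr1 at 0 or 1 read in every colon library. The fibroblast markers, at 8.72 and 14.6 against 11.8 and 3.78 CPM, overlapped, as did the neutrophil markers, at 24.8 and 26.1 against 47.7 and 23.7 CPM, nearly all of it Ly6g. The epithelial sum, 11695 and 11400 against 12774 and 12003 CPM, was slightly higher in DDX5ΔIEC. The leukocyte sum was higher in the ileum than in any colon library. It was 76.9 and 97.5 CPM in WT ileum and 67.1 and 64.9 CPM in DDX5ΔIEC ileum. Most of it was Ptprc (46.2 and 67.8 CPM in WT ileum) and Rac2 (20.7 and 23.5 CPM). Coro1a, Laptm5, Cd52 and Cd53 each overlapped between WT colon and WT ileum. The T cell sums, 13.4 and 6.73 CPM in WT ileum, overlapped those of WT colon as well. The part of these cells in the colon C3 difference was not tested, and in such bulk preparations fewer cells of a type cannot be told apart from less RNA per cell.

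**Figure D4:**
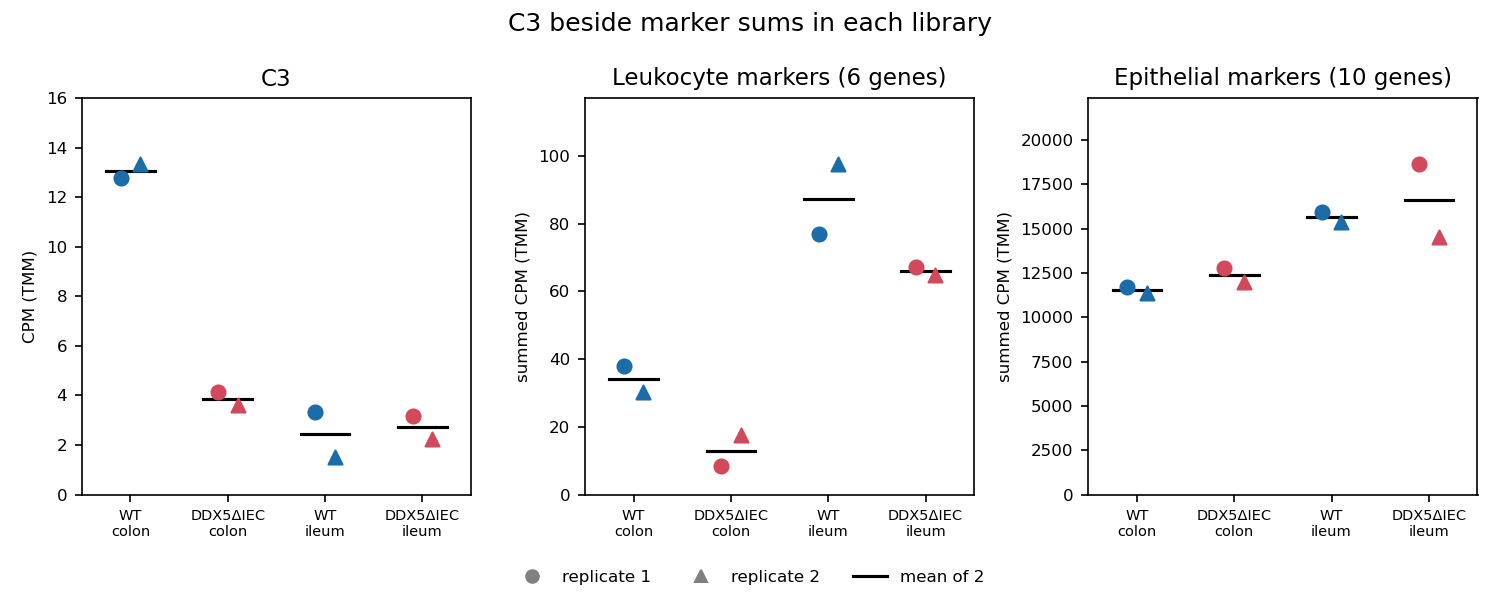
CPM (from 0) of C3, summed CPM of 6 leukocyte markers and summed CPM of 10 epithelial markers in each library; symbols as in the plot of members by library. In the colon both C3 and the leukocyte sum are lower in DDX5ΔIEC. In the ileum the leukocyte sum, mostly Ptprc and Rac2, is 64.9 or more, and C3 is 3.32 or less.

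In the ileum, Cd55 was again lower in DDX5ΔIEC, Cfi rose at the edge of the criterion, and C3 was not called. There the criterion was met downwards by 3.48% and upwards by 3.87% of 14068 genes, and by 1 of 5 members in each direction. Adjusted edgeR p-values under 0.05 were reached by 0.697% of genes and by 0 of the members, and 2 members had an unadjusted edgeR p under 0.05. DESeq2 also gave 0 members an adjusted p under 0.05, and its share over all genes is not given here. Cd55 had 10060 and 9249 reads in WT and 3582 and 3836 in DDX5ΔIEC, or 553 ± 125 against 373 ± 53.1 CPM. The highest DDX5ΔIEC library, at 411 CPM, was below the lower WT library, at 464. The level fell by 0.55 on the log2 scale (SE 0.173, unadjusted p = 0.00843, adjusted p = 0.214). The call ended without WT ileum replicate 2 (log2 fold change -0.32, unadjusted p = 0.285) and without DDX5ΔIEC ileum replicate 1 (-0.44, unadjusted p = 0.169).

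Cfi was at 5.08 and 4.09 CPM in WT ileum and at 7.50 and 5.89 CPM in DDX5ΔIEC ileum. The groups do not overlap, and the log2 fold change was 0.55 (SE 0.236, unadjusted p = 0.0411, adjusted p = 0.380). The unadjusted p was 0.0671 without the replicate block and 0.222 with DESeq2, and leaving out any one ileum library gave 0.111 to 0.434, so the call rests on the setting. C3 was at 3.32 and 1.53 CPM in WT and at 3.19 and 2.25 CPM in DDX5ΔIEC, with the DDX5ΔIEC libraries inside the WT range (log2 fold change 0.19, 95% interval -0.57 to 0.95, adjusted p = 0.883). The sign of that value depended on single libraries. It was 0.83 (unadjusted p = 0.0406) without WT ileum replicate 1, -0.28 without WT ileum replicate 2 and -0.17 without DDX5ΔIEC ileum replicate 1. Cfb was at 12.5 and 12.6 against 11.4 and 10.3 CPM (log2 fold change -0.20, interval -0.59 to 0.19, adjusted p = 0.721). Cd46 was at 3.00 and 2.64 against 1.59 and 2.03 CPM, with no overlap (log2 fold change -0.65, interval -1.44 to 0.15, adjusted p = 0.518). Over 8 refits with other settings its log2 fold change was -0.68 to -0.63. The unadjusted p, from edgeR or DESeq2, was 0.0336 to 0.353, so whether Cd46 met the criterion depended on the setting. Cd59a, with 2 reads in each ileum library, could not be tested.

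The genotype difference of C3 was 1.88 higher on the log2 scale in the ileum than in the colon (SE 0.474, 95% interval 0.80 to 2.97, unadjusted p = 0.00376). With single libraries left out it was 1.48 to 2.59, the highest without WT ileum replicate 1. After adjustment over 16178 genes, of which 0.0124% were called by edgeR, p was 0.935, so a difference between the segments is not called for C3 at that threshold. With no filter on low counts the adjusted p was 0.00135. The share of all genes called in that fit is not given here, so no conclusion is drawn from it. For Cd55 the same term was 0.05 (interval -0.73 to 0.84, unadjusted p = 0.877), for Cfb -0.07 (interval -0.61 to 0.46) and for Cd46 -0.57 (interval -1.55 to 0.41). For Cfi the colon part of this term rests on 1 and 5 reads in WT and 1 and 0 in DDX5ΔIEC, too few to test in the colon alone. No conclusion is drawn from its value of 2.76, which was 1.43 to 4.90 with single libraries left out. The lowest came without WT colon replicate 2 and the highest without DDX5ΔIEC colon replicate 1, and leaving out WT colon replicate 1 or DDX5ΔIEC colon replicate 2 gave 3.35 and 1.81. By edgeR and by DESeq2 0 of the 6 members tested were called on this term, and 2, C3 and Cfi, had an unadjusted edgeR p under 0.05.

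The balance between C3 and its partners differed by group. Per library, C3 reads divided by Cfb reads were 1.72 and 2.03 in WT colon and 0.714 and 0.520 in DDX5ΔIEC colon. In the ileum the ratios were 0.267 and 0.122 in WT and 0.279 and 0.219 in DDX5ΔIEC. Per length the WT colon ratios were 0.947 and 1.12, so the levels there were about equal, and the 2 ileum groups overlapped. Reads of Cfb can be lost to Gm20547, as given above, so the size of each ratio is uncertain. Cd55 reads divided by those of Cr1l, the other broadly expressed membrane regulator of C3 cleavage, were 0.796 and 0.722 in WT colon and 0.564 and 0.348 in DDX5ΔIEC colon. They were 6.69 and 9.18 in WT ileum and 4.55 and 6.67 in DDX5ΔIEC ileum, where the higher value is just below the lower WT value. Cr1l itself differed little between genotypes, with log2 fold changes of 0.10 (adjusted p = 0.664) in colon IECs and -0.04 (adjusted p = 0.946) in ileal IECs.

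Over the 8 libraries, log2 CPM of Cfb, Cfi and Cd55 correlated with each other at Pearson r of 0.924 to 0.965, and C3 with them at -0.662 to -0.638. These values describe libraries that fall into 2 tissues, and each pair shares its libraries and scaling. The genes most like C3 over the same 8 libraries, of 16178, were Rpp21 (r = 0.976), Gm14097 (0.975), Ddx20 (0.974), Tut1 (0.967) and Ankrd27 (0.961). Rpp21 encodes a subunit of ribonuclease P, Ddx20 another DEAD-box helicase and Tut1 a terminal uridylyltransferase. Their levels moved less than that of C3, for example 18.1 and 18.5 CPM in WT colon against 15.3 to 16.7 CPM in the other libraries for Ddx20.

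Of the 48 other complement genes in the lists, 33 were listed in the colon table and 46 in that of the ileum, and most were too low to test. In the colon 13 were tested, and 1 met the criterion, downwards, as 3.67% of all genes did. This was Itgb2, the beta chain of the complement receptors of leukocytes, with 26 and 22 reads in WT and 8 and 13 in DDX5ΔIEC (log2 fold change -1.14, unadjusted p = 0.0445, adjusted p = 0.406). The median log2 fold change of the 13 was -0.11. None of the 4 classical and lectin genes tested, the 2 terminal genes, the 1 further alternative pathway gene or the 4 further regulators met it. In the ileum 14 were tested, with a median of 0.13, and 2 met the criterion upwards, as 3.87% of all genes did. Hc, which encodes C5, had 8 and 13 reads in WT and 5 and 33 in DDX5ΔIEC, so that the groups overlap and one library carries the value (log2 fold change 1.43, unadjusted p = 0.0196, adjusted p = 0.297). Cfp, properdin, which stabilizes the alternative pathway enzyme, had 16 and 10 reads in WT and 17 and 14 in DDX5ΔIEC. Relative to library size these are 0.412 ± 0.0182 against 0.890 ± 0.0382 CPM per kb (log2 fold change 1.10, unadjusted p = 0.0344, adjusted p = 0.358). In the colon Cfp was at 0.700 ± 0.165 against 1.07 ± 0.120 CPM per kb and was not called (log2 fold change 0.62, adjusted p = 0.522).

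Between the segments, 6 of the 17 other complement genes tested were called in WT, 4 higher and 2 lower in the ileum, against 17.4% and 16.8% of all genes. The count is near that background, and Mbl2, C1ra and Itgax passed the count filter only through the segment where they were higher. C2, the classical and lectin pathway counterpart of factor B and its neighbour on chromosome 17, had 24 and 37 reads in the colon against 245 and 94 in the ileum (log2 fold change 2.62, SE 0.461, adjusted p = 0.00285). Mbl2, mannose-binding lectin, had 0 reads in the 4 colon libraries and 32 and 51 in WT ileum, which makes it at least 32.0-fold higher there (3 reads over the group as the floor). C1ra, a protease of the C1 complex, was lower by 2.80 on the log2 scale, with 56 and 48 against 10 and 3 reads (log2 fold change -2.80, adjusted p = 0.00190). Clu, clusterin, was also lower (log2 fold change -2.31, adjusted p = 0.0278), and C1qbp (0.38) and Itgax (1.56) were higher. In DDX5ΔIEC mice 8 of 17 were called, 6 higher and 2 lower in the ileum, against 18% and 17.3% of all genes. C2, Mbl2, C1qbp, Itgax and C1ra were called as in WT. Fcna (log2 fold change -1.72) was called lower, and Itgam (2.61) and Itgb2 (1.40), which encode leukocyte complement receptor chains, were called higher. The summed leukocyte markers given beside C3 are lowest in DDX5ΔIEC colon as well.

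Of 11 factors and cytokines known to act on C3 transcription, 7 were tested in each segment. In the colon 1 met the criterion, downwards, as 3.67% of all genes did. Tnf, an inflammatory cytokine, had 71 and 61 reads in WT and 16 and 27 in DDX5ΔIEC (log2 fold change -1.58, SE 0.344, unadjusted p = 0.00616, adjusted p = 0.277). Cebpb encodes C/EBP beta, a member of the C/EBP family whose motif is shown in the C3 promoter. It was at 9.72 and 13.3 CPM in WT colon and at 13.6 and 5.83 CPM in DDX5ΔIEC colon, overlapping ranges (log2 fold change -0.35, adjusted p = 0.770). In the ileum it was at 7.94 and 8.26 CPM in WT and at 21.7 and 12.2 CPM in DDX5ΔIEC, and it rose by a log2 fold change of 1.05 (SE 0.221, unadjusted p = 0.000614, adjusted p = 0.0686). Cebpd was at 36.6 and 33.2 against 30.9 and 24.9 CPM in the colon, below the size the criterion asks for (log2 fold change -0.34, unadjusted p = 0.0226). Nfkb1 and Rela, subunits of NF-kB, had log2 fold changes of 0.02 and 0.08 in the colon. Nr1h4, at 76.4 and 71.1 CPM in WT colon against 45.3 and 84.4 in DDX5ΔIEC colon, overlapped between the genotypes. Ppara, at 16.3 and 18.8 against 11.3 and 22.1 CPM, did so too. Il6 was at 0 reads in the colon, and Twist1, Ifng and Il1b were too low to test in either segment.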

How the data were processed

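RNAseq counts of 8 libraries were analysed. The raw counts were deposited by the authors, who aligned paired-end reads of stranded, ribosome-depleted libraries to mm10 with STAR 2.6.1a and counted uniquely mapped reads over GENCODE exons with featureCounts. The strand setting is not given in the sources used here. The authors' normalized values, fold changes and p-values were not used. Groups came from the labels. A gene listed in 1 table was counted as 0 in the other.

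Genes were kept by filterByExpr (minimum count 10), scaled by TMM and tested with the edgeR 4.0.16 quasi-likelihood test in R 4.3.3, with Benjamini-Hochberg adjustment over all genes. Genotype was tested within each tissue with the replicate number as a block, since the methods include a harvest covariate. Same-numbered libraries deviated together at r = 0.00684 in the colon and 0.238 in the ileum. Tissue contrasts and the interaction came from 1 fit of 8 libraries without a block. Log2 CPM used a prior count of 2. Counting intervals and floors cover counting error only. With 2 mice per group, an exact permutation test cannot go below 0.333, so p-values rest on edgeR's pooled spread. Positions and transcripts came from GENCODE on GRCm38, a later release than the authors used, and promoters from RefSeq.

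The members, the lists and the tests were chosen with earlier results of these data known. The genes named are the 7 members, the other complement genes past a call rule or among the 3 with the highest level per length, the 5 most like C3, Ddx5 and cell type markers. The factors and cytokines known to act on C3 transcription are named as well. The fits were tested on simulated counts. DESeq2 1.42.0, RLE scaling, other filters, other blocks and each library left out were the alternatives, all planned.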

Additional observations from a re-analysis of the deposited data

How the results depend on the processing

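With the alternatives in scaling, filter, tool, block and library, 396 values of the members, Ddx5 and Cr1l kept their direction and side of the threshold, 17 turned, 21 lost and 6 gained a call. Without the replicate block, Cfi lost its call in the ileum, with a log2 fold change of 0.54 (edgeR unadjusted p = 0.0671). Cfi was also not called by DESeq2, with or without the block, or with all 8 libraries in one fit. With no replicate block the colon values of C3 (-1.77, adjusted p = 0.0627) and Cd55 (-0.63, unadjusted p = 0.0316) kept their calls, and the block changed no other call of a member. Libraries of one genotype and number were also treated as 1 mouse in a replicate block, which the labels do not state. As many members were then called as in the main fit, in both tissue contrasts and on the interaction. With no filter on low counts, the C3 interaction was 1.85 at an adjusted p of 0.00135. The share of all genes called on this term without the filter is not given here, and the cause of the change was not tested. Genes called in the colon numbered 1031, 508 with DESeq2 and the block, and 648 to 1794 with a library left out. In the ileum they numbered 1034, 414 with DESeq2 and the block, 539 without it, and 1642 without DDX5ΔIEC ileum replicate 2.

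All 8 libraries in one fit called 3 members in the colon. Leaving out single libraries gave 1 to 2 members called in the colon, 0 to 2 in the ileum and 3 to 5 in WT tissue. The C3 value in the ileum then lay between -0.28 and 0.83, that of Cd46 in the colon between -0.36 and 0.19, and that of Cr1l in the ileum between -0.19 and 0.10. Interaction terms near 0 changed sign as well, over -0.19 to 0.067 for Cfb, -0.26 to 0.45 for Cd55, -0.49 to 0.27 for Cd59a, -0.10 to 0.027 for Ddx5 and -0.30 to 0.0021 for Cr1l.

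The depth limits Cfd, Cfi in the colon and Cd59a in the ileum to single reads, and 2 mice per group leave intervals of the genotype difference wide. The harvest of each mouse was not given in the sources used here, so harvest and replicate number cannot be told apart. With library totals in place of TMM, levels per length moved beyond 1 SD in 8 cases, for example to 2.80 CPM per kb for C3 in WT colon.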
